A study of Mus musculus with 3 samples.

Results

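The alcohol and aldehyde dehydrogenases described here are 8 genes, Adh1, Adh5, Adh7, Aldh1a1, Aldh1a7, Aldh2, Aldh3a2 and Aldh9a1, measured in the liver of mice without apolipoprotein E. Their members are all probe sets annotated with 1 of these symbols, which gave 13 of the 12488 probe sets on the array and 8 of 8251 genes with a symbol of their own. No probe set listed a member among several symbols. Each probe set was kept separate, and each value is a MAS5 signal, a hybridisation intensity on a linear scale that the authors had already scaled. Signals of different probe sets are not comparable with each other, because probes bind with different strength.

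RNA came from the liver of male homozygous apoE knockout mice on a mixed C57BL/6JxOLA129 background, and 1 array was made for each of 3 diets. The first diet was enriched in t10,c12-CLA, the next in c9,t11-CLA, and the control diet contained linoleic acid, each at 1.0% by weight in feed with 30% of its energy as fat. CLA is conjugated linoleic acid, and its isomers differ from each other in the position and geometry of their double bonds. By the design text 29 mice aged 3 months were assigned to the diets, 9 to t10,c12-CLA, 10 to c9,t11-CLA and 10 to control, and were fed for 12 weeks. The sample labels speak of a western diet, where the design text describes semi-purified feed. All 3 groups lack apolipoprotein E, so the control is not a wild-type liver. The sources used here do not say whether an array held RNA of a single mouse or of several. With 1 array per diet no difference could be tested, and no p-value or interval is given.

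Alcohol dehydrogenases (ADH) are cytosolic enzymes that oxidise alcohols to aldehydes, and aldehyde dehydrogenases (ALDH) oxidise the aldehydes to acids. In the liver the chain handles ethanol, retinol, formaldehyde and the fatty alcohols and aldehydes formed from lipids. Because each step passes electrons to NAD, the family ties alcohol and aldehyde removal to the redox state of the hepatocyte.

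On the t10,c12-CLA array the largest member differences from control were modest, between -0.76 and 0.79 on the log2 scale. Aldh1a7 was 1.73-fold higher, while Adh7, Aldh9a1 and 1 probe set of Aldh2 were each 1.69-fold lower. Aldh3a2, the microsomal fatty aldehyde dehydrogenase, was 2.70-fold lower on c9,t11-CLA than on control by its probe set 99559_at. By its other probe set, 161401_f_at, it was 1.38-fold lower. The value of 99559_at was the only measured member difference from control that reached 2-fold. Between the isomers the same probe set was 3.55-fold higher on t10,c12-CLA than on c9,t11-CLA, and 161401_f_at 1.97-fold higher.

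The upstream sequences of 3 members are shown first, since the results below turn on a close pair of paralogs and on Aldh3a2. Aldh1a1 (chr19:20492583-20643463, + strand) and Aldh1a7 (chr19:20692953-20727556, - strand) lie next to each other on chromosome 19. A probe for a transcript of either may also bind that of its neighbour, which was not tested. The upstream sequences below do not measure such binding. Below are the 120 bases before an annotated start of each gene, chr19:20601848-20601967 for Aldh1a1 and chr19:20727557-20727676 for Aldh1a7, from RefSeq on GRCm38.p6 and written 5′ to 3′ on the gene's strand. Capitals mark the longest run of bases shared by the 250-base upstream windows of both genes.
Aldh1a1: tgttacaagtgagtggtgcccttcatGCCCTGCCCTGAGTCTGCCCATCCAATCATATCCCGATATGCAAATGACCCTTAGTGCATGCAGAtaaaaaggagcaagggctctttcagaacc
Aldh1a7: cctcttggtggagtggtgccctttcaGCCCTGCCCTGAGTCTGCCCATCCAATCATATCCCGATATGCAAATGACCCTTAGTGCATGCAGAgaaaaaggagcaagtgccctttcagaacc
The shared run was 65 bases long, at positions -94 to -30 before the start in both genes. Over the 120 bases, set side by side without gaps, 105 were identical (87.5%).

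Aldh3a2 (chr11:61223417-61267528) lies on the - strand of chromosome 11. The 250 bases before an annotated start, chr11:61267187-61267436 on GRCm38.p6, are given from RefSeq with the CCAAT match in capitals.
Aldh3a2: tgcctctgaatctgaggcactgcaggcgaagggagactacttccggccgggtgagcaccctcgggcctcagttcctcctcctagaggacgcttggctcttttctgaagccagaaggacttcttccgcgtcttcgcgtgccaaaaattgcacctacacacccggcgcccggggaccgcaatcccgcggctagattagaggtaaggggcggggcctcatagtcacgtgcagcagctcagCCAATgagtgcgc
The promoter table held windows for 7 of the 8 members, 9 windows in all. Of these 9, 5 held CCAAT on either strand, those of Adh7, Aldh1a1, Aldh1a7, Aldh3a2 and Aldh9a1, against 33.8% of the 32851 windows of 250 bases in the table. TATAAA was present in 3 of 9 windows, those of Adh5, Adh7 and Aldh1a7, against 12.4% of all windows. The nuclear receptor half-site AGGTCA was found in none of the 9, against 14.0% of all windows, and its direct repeat with 1 base between the half-sites likewise in none, against 0.0335%. These are matches of letters within the windows, which share bases where a motif lies in the common run of the paralogs.

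A signal was called measured when it lay above a floor of 490.3, the pooled median of all signals, and a difference was measured when both arrays passed. Of the 13 probe sets, 12 lay above the floor on all 3 arrays. The exception was 161956_at of Aldh1a1, with 588.1 on t10,c12-CLA, 446.9 on c9,t11-CLA and 180.0 on control. Its t10,c12-CLA signal was thus at least 1.20 times that of either other array, and no fold is given between c9,t11-CLA and control, both below the floor. Identifiers of 5 probe sets carry a letter before "_at" that marks probes that may also match other sequences. A size of 2-fold, a log2 difference of 1, was used for counting.

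The deposited signals had already been scaled, and their 2%-trimmed mean was 1501 on each array. That equality can come from the scaling itself and is no evidence that the arrays were alike. Median signals were 486, 524 and 457 on the t10,c12-CLA, c9,t11-CLA and control arrays, and the brightest probe set reached 71110.7, 135007 and 70778.2 in that order. The 3′ to 5′ signal ratio, a sign of RNA integrity, was 0.779 on t10,c12-CLA, 0.981 on c9,t11-CLA and 1.06 on control for Gapdh, and 1.35, 1.89 and 1.40 in the same order for beta-actin. The highest beta-actin ratio was thus on the c9,t11-CLA array, which also carries the 2-fold difference of Aldh3a2 from control, and its part in that value was not tested. Of 10 hepatocyte markers 9 were on the array, and 10 of their 11 probe sets lay above the floor on all arrays. Their summed signal was 328146 on t10,c12-CLA, 600851 on c9,t11-CLA and 330642 on control. Alb alone gave 31244.3, 101163.1 and 28436.9 of these sums in that order. For c9,t11-CLA over control 9 of 10 measured probe sets were above 0, with a median log2 difference of 0.72. Ttr went the other way, at -0.94. For t10,c12-CLA over control 4 of 10 were above 0, with a median of -0.10. The part of the higher sum on the c9,t11-CLA array in the results below was not tested. In whole liver, fewer cells of a type and less RNA per cell cannot be told apart.

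**Figure D1:**
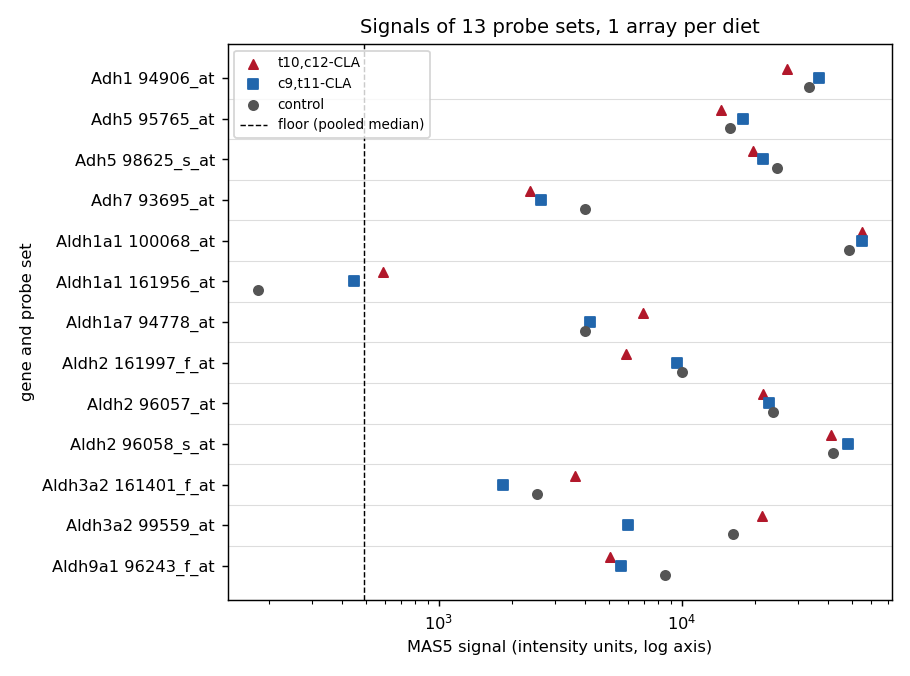
MAS5 signal (x axis, log scale, intensity units) of each of the 13 probe sets (rows) on the t10,c12-CLA array (triangles), the c9,t11-CLA array (squares) and the control array (circles), with the floor of 490.3 as a dashed line. Each point is 1 array, so no error bar can be drawn. The symbols of a row lie close together for Adh5, Aldh1a1 100068_at and Aldh2 96057_at, and the c9,t11-CLA symbol of Aldh3a2 99559_at stands apart on the left at 6020.9.

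Of the alcohol dehydrogenases, Adh1 is the class I enzyme of hepatocytes, the main oxidiser of ethanol and a retinol dehydrogenase. Its probe set 94906_at gave a signal of 26998.2 on t10,c12-CLA, 36742.1 on c9,t11-CLA and 33361 on control. The t10,c12-CLA array was thus the lowest of the 3. The log2 difference was -0.31 for t10,c12-CLA over control and 0.14 for c9,t11-CLA over control, and this value changed sign to -0.06 when arrays were scaled to equal medians.

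Adh5, the class III enzyme, oxidises the glutathione adduct of formaldehyde and reduces S-nitrosoglutathione. Probe set 95765_at gave 14487.3 on t10,c12-CLA, 17843.2 on c9,t11-CLA and 15686.5 on control. Probe set 98625_s_at gave 19498.1, 21469 and 24560.8 in the same order of diets. The t10,c12-CLA array was the lowest by both, at log2 differences of -0.11 and -0.33 from control. The probe sets of Adh5 stood on opposite sides of 0 for c9,t11-CLA over control, at 0.19 and -0.19, and at equal medians the higher value became -0.01.

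Adh7 is the class IV enzyme, known for retinol oxidation in the lining of the stomach and upper digestive tract. Its probe set 93695_at gave 2367.4 on t10,c12-CLA, 2638.2 on c9,t11-CLA and 3994.8 on control. The control array was the highest, and both CLA arrays lay close together below it. Log2 differences were -0.75 for t10,c12-CLA and -0.60 for c9,t11-CLA over control, and -0.16 between the isomers. Both differences from control use the same control array, so that a single high control value would give both.

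Because Adh7 is best known from stomach and squamous lining, markers of those tissues were looked up. Of the 18 listed genes 15 were on the array, with 20 probe sets, of which 13 were below the floor on all arrays and 4 above it on all. Their summed signal was 34773 on t10,c12-CLA, 29699 on c9,t11-CLA and 27302 on control, and 9336.2 of the t10,c12-CLA sum came from 1 probe set, 160553_at of Ly6d. The marked probe set 100446_r_at of Sprr1b gave 17702.8 of the t10,c12-CLA sum, 20494.6 of the c9,t11-CLA sum and 18404.6 of the control sum. Of the 5 probe sets measured for t10,c12-CLA over control 1 was above 0, that of Ly6d, and the median was -0.06. Sprr1a 160909_at was not among these 5, with 1262.5 on t10,c12-CLA but 270.4 on c9,t11-CLA and 322.0 on control, both below the floor. Its t10,c12-CLA signal was thus at least 2.57 times that of either other array. Krt4, a keratin of squamous lining, had 1412.6 on t10,c12-CLA, 2139.8 on c9,t11-CLA and 1655 on control by 100421_at. Atp4a, a subunit of the gastric proton pump, had 713.8 on t10,c12-CLA, 974.7 on c9,t11-CLA and 825.1 on control. Tff1, a gastric mucosal peptide, and 100446_r_at of Sprr1b, a squamous envelope protein, were also above the floor on all arrays. They stood at -0.05 and -0.06 for t10,c12-CLA over control. The other probe set of Sprr1b, 100445_f_at, was below the floor at 12.8 on t10,c12-CLA, 78.1 on c9,t11-CLA and 68.5 on control. By the measured probe sets of Krt4, Atp4a, Tff1 and Sprr1b, as in Adh7, the t10,c12-CLA array was the lowest, but the c9,t11-CLA array was the highest. Trp63, on the same list, had the order of Adh7 by 103810_at, with signals near the floor. It gave 404.8 on t10,c12-CLA, below the floor, 495.5 on c9,t11-CLA and 577.4 on control. Every probe set of the keratins Krt5, Krt13, Krt14 and Krt15 and the one of Atp4b, the other proton pump subunit, lay below the floor on every array. Ly6d, a surface protein of squamous cells, had 9336.2 on t10,c12-CLA, 277.4 on c9,t11-CLA and 1588.8 on control by 160553_at, and its other probe set lay below the floor. The part of such cells in the Adh7 signal was not tested.

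The ADH genes form a cluster on chromosome 3 of GRCm38.p6. Adh7 lies at 138198064 to 138232042, Adh1 at 138277585 to 138290698 and Adh5 at 138437200 to 138455499. Adh4, a related class II gene outside the members, lies between Adh1 and Adh5 at 138415456 to 138432683. Over the 6 probe sets of these 4 genes, all 6 had lower signals on t10,c12-CLA than on control, with a median log2 difference of -0.53. Of the 4 that belong to the members all 4 were lower, with a median of -0.32, and their sign was kept under each scaling tried. Adh4 and Adh5 each entered with more than 1 probe set, and all 6 values use the same arrays. Those of Adh1 (-0.31) and Adh5 (-0.11 and -0.33) lay within 0.39 of 0. That is the SD of a single log2 difference between probe sets of the same gene. Across all 5584 measured probe sets the median was -0.01 and 49.2% were above 0. On c9,t11-CLA 4 of the 6 were below control as deposited and all 6 when arrays were scaled to equal medians. Of all measured probe sets 52.8% were above 0 in this comparison as deposited. Their median of 0.03 became -0.15 at equal medians, so the array as a whole moved the same way.

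Liver lobules are zoned, and markers of both zones were set beside the ADH genes. Of 8 listed pericentral hepatocyte genes 7 were on the array with 9 probe sets, 8 of them above the floor on all arrays. Only 1 of these 8 was above 0 for t10,c12-CLA over control, that of Cyp2e1 at 2.15, and the median was -0.52. The ADH genes had a median of -0.53 with Adh4 and of -0.32 over the members alone. Of 10 listed periportal genes 7 were on the array, each with 1 probe set above the floor on all arrays, and 3 of the 7 were above 0 with a median of -0.10. The summed pericentral signal was 85036 on t10,c12-CLA, 133257 on c9,t11-CLA and 120126 on control, and the periportal one 177117, 264088 and 167860 in the same order of diets. Cyp2e1 alone gave 13410.7, 39034.5 and 3021.6 of the pericentral sums in that order. For c9,t11-CLA over control 4 of the 8 pericentral probe sets were above 0, with a median of -0.17. Of the 7 periportal ones 6 were above 0, with a median of 0.65. The part of zonation in the ADH values was not tested.

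Aldh1a1 is a cytosolic retinaldehyde dehydrogenase that makes retinoic acid. Its probe set 100068_at gave 54987 on t10,c12-CLA, 55090.1 on c9,t11-CLA and 48591.4 on control. The CLA arrays were nearly equal and both 1.13-fold above the control array. The log2 difference between c9,t11-CLA and control was 0.18 as deposited, -0.01 at equal medians and -0.37 after quantile normalization, which pulls the brightest signals of the c9,t11-CLA array down to a common distribution. The other probe set of the gene, 161956_at, was measured on the t10,c12-CLA array alone.

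Aldh1a7 is a mouse copy of Aldh1a1. Probe set 94778_at gave 6910.4 on t10,c12-CLA, 4170.6 on c9,t11-CLA and 3999.7 on control. The t10,c12-CLA array stood above the other arrays, which were close together. Log2 differences were 0.79 for t10,c12-CLA over control, 0.06 for c9,t11-CLA over control and 0.73 between the isomers, and at equal medians the 0.06 became -0.14. At 0.79 it was the highest member difference in that comparison, where 8.54% of all measured probe sets were as far from 0. Aldh1a1 100068_at had 0.18 in the same comparison and -0.00 between the isomers, which became 0.54 after quantile normalization. How far the probe sets of these paralogs bind each other's transcripts was not tested, and none of their identifiers is marked.

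Aldh2 (chr5:121566027-121593824), the mitochondrial enzyme that clears acetaldehyde made from ethanol, was read by 3 probe sets. Probe set 96057_at gave 21513.3 on t10,c12-CLA, 22681.5 on c9,t11-CLA and 23750.9 on control. Probe set 96058_s_at gave 40813, 48297.8 and 41740.2 in the same order. By these probe sets no difference from control exceeded 0.21 on the log2 scale, and those of 96058_s_at changed sign after quantile normalization. The marked probe set 161997_f_at gave 5895.6 on t10,c12-CLA, 9578.5 on c9,t11-CLA and 9984.5 on control. Its log2 difference for t10,c12-CLA over control was -0.76, against -0.14 and -0.03 by the other two. The probe sets of Aldh2 thus differed in this comparison, and the lower signal rests on 161997_f_at alone.

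Aldh3a2 oxidises long-chain fatty aldehydes at the endoplasmic reticulum, including those that arise during omega-oxidation, and in mouse liver it is a known target of the nuclear receptor PPARA. Probe set 99559_at gave 21390.0 on t10,c12-CLA, 6020.9 on c9,t11-CLA and 16279.2 on control. Probe set 161401_f_at gave 3613.1 on t10,c12-CLA, 1836.9 on c9,t11-CLA and 2531.4 on control. Both probe sets placed the diets in the same order, with t10,c12-CLA highest and c9,t11-CLA lowest.

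For c9,t11-CLA over control the log2 difference of Aldh3a2 was -1.43 by 99559_at and -0.46 by 161401_f_at, a gap of 0.97. For t10,c12-CLA over control the values were 0.39 and 0.51. Between t10,c12-CLA and c9,t11-CLA they were 1.83 and 0.98, that is 3.55-fold and 1.97-fold higher on t10,c12-CLA. Of all measured probe sets, 1.30% were as far from 0 as 99559_at for c9,t11-CLA over control, and 0.790% between the isomers. For the marked probe set the corresponding shares were 35.6% and 6.84%.

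Among 5237 probe sets above the floor on all arrays, the genes closest to Aldh3a2 99559_at were found from both log2 differences to control. Pex19, an import factor for peroxisomal membrane proteins, was nearest at a Euclidean distance of 0.11, with signals of 4908 on t10,c12-CLA, 1511 on c9,t11-CLA and 4031.7 on control. Tubb5, a beta-tubulin read by a marked probe set, followed at 0.14 and Ctsb, the lysosomal protease cathepsin B, at 0.15. Only 3 arrays stand behind this likeness, 1 of which enters both differences.

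Aldh9a1 (chr1:167349963-167368530) oxidises gamma-trimethylaminobutyraldehyde, a step of carnitine synthesis. Its marked probe set 96243_f_at gave 5033.4 on t10,c12-CLA, 5594.7 on c9,t11-CLA and 8496.7 on control. As for Adh7, the control array was the highest and the CLA arrays lay close together. Log2 differences were -0.76 for t10,c12-CLA and -0.60 for c9,t11-CLA over control, again with the control array in common, and -0.15 between the isomers.

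**Figure D2:**
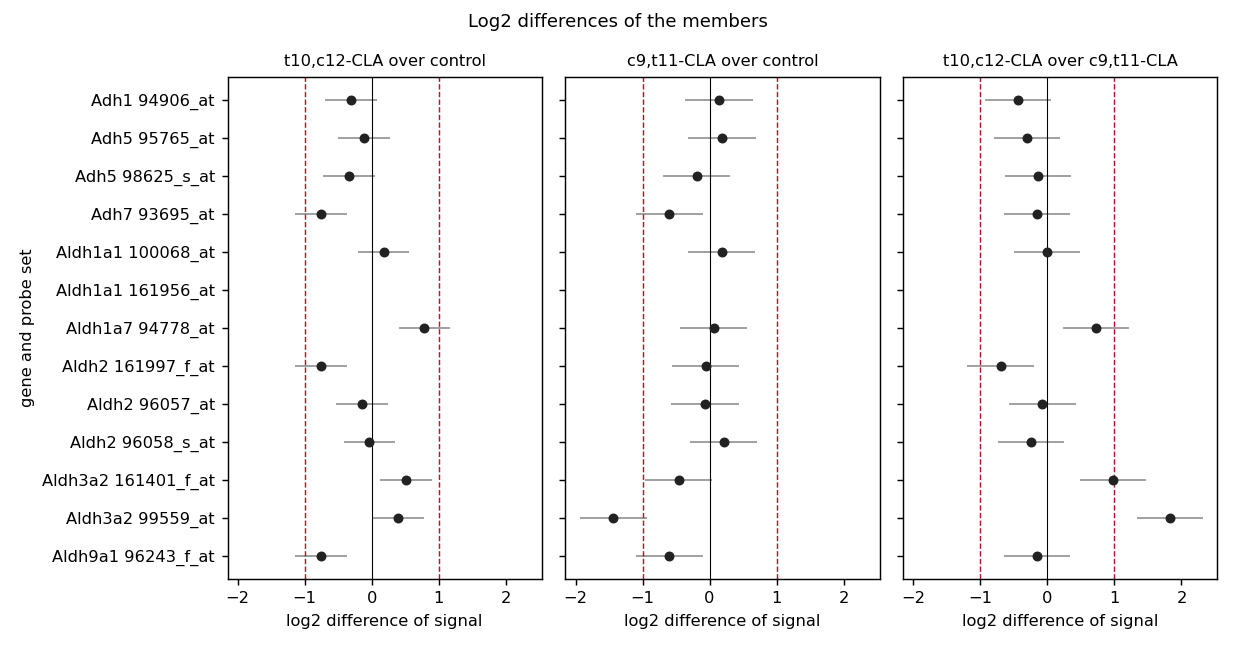
Log2 difference of signal (x axis) of each member probe set (rows) for t10,c12-CLA over control, c9,t11-CLA over control and t10,c12-CLA over c9,t11-CLA. Grey bars are 1 SD of a single log2 difference between probe sets of the same gene over all genes (0.39, 0.50 and 0.49 from left to right), not the spread between mice, and dashed lines mark 2-fold. Aldh3a2 99559_at lies past the line at -1.43 in the middle panel and at 1.83 in the right panel, and 161956_at has no point because its difference was not measured.

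The members were counted past 2-fold beside all measured probe sets. For t10,c12-CLA over control none of the 12 measured members was 2-fold higher and none 2-fold lower, where 2.18% and 1.90% of all measured probe sets were. For c9,t11-CLA over control 0 of 12 were 2-fold higher, against 3.25% of all, and 1 of 12 was 2-fold lower, against 2.81% of all 5480. Between t10,c12-CLA and c9,t11-CLA 1 of 12 was 2-fold higher, against 3.47% of 5567, and 0 were 2-fold lower, against 2.73%. The single probe set counted in either case was 99559_at of Aldh3a2. Counts of 0 or 1 in 12 lie near these shares and are no result about the members as a group.

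The median log2 difference of the members was -0.13 for t10,c12-CLA over control, -0.06 for c9,t11-CLA over control and -0.15 between the isomers. The medians of all measured probe sets were -0.01, 0.03 and -0.05. Within 0.25 of 0 lay 4, 8 and 6 of the 12 members in these comparisons. The spread between probe sets of the same gene gives a scale of technical error. Over 726, 679 and 707 pairs, the SD of a single log2 difference was 0.39, 0.50 and 0.49. Of 15 gaps between measured probe sets of the same member, 4 exceeded the SD expected for a pair, 2 each in Aldh2 and Aldh3a2.

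**Figure D3:**
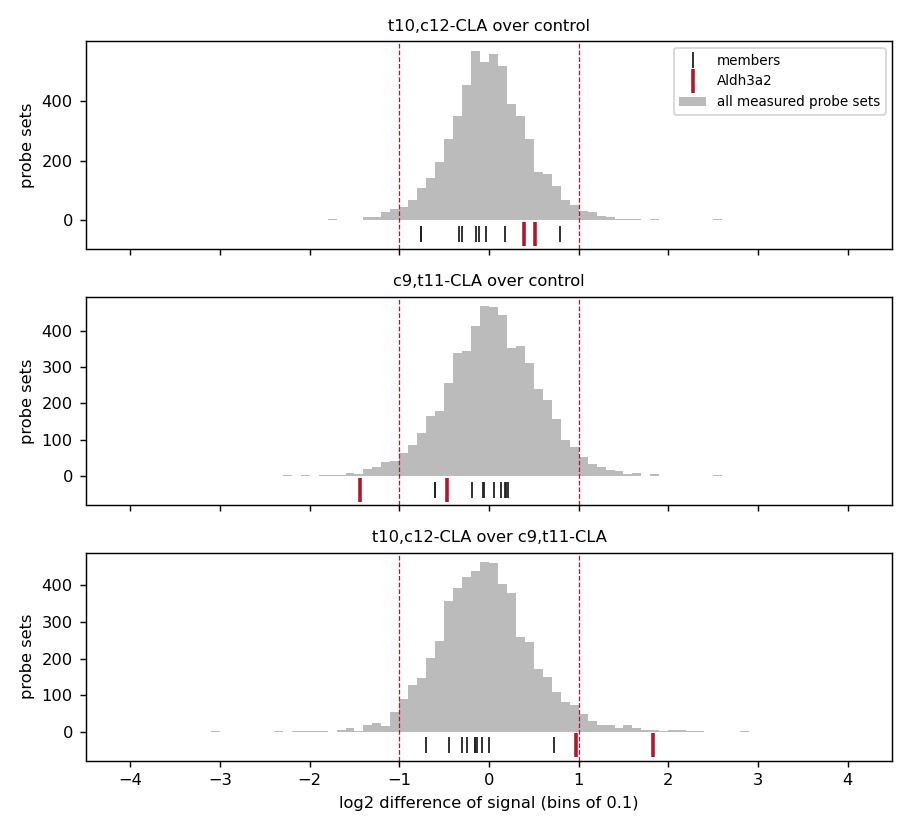
Number of measured probe sets (y axis) by log2 difference of signal (x axis, bins of 0.1) for each comparison, with the 12 measured members as ticks under the bars, Aldh3a2 in red, and dashed lines at 2-fold. Most member ticks lie in the body of each distribution. The tick of Aldh3a2 99559_at lies in the left tail for c9,t11-CLA over control and in the right tail between the isomers.

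Other ADH and ALDH genes were taken from a list of 20, of which 6 were on the array with 11 probe sets, 4 of them above the floor on all arrays. For t10,c12-CLA over control 0 of these 4 were 2-fold higher and 1 was 2-fold lower, with a median of -0.47. Adh4, an alcohol dehydrogenase that also oxidises retinol, gave 1222.5 on t10,c12-CLA, 2252.6 on c9,t11-CLA and 2544.6 on control by 103983_at. That is 2.08-fold lower on t10,c12-CLA than on control, and the marked probe set of Adh4 stood at -0.72 on the log2 scale. None of the 4 reached 2-fold in either direction for c9,t11-CLA over control, where the median was -0.20. Nor did any between t10,c12-CLA and c9,t11-CLA, with a median of -0.29.

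The list of fatty omega-oxidation and fatty aldehyde genes had 7 of 16 genes on the array with 9 probe sets, all above the floor. Of these 9, 2 were 2-fold lower and none 2-fold higher for c9,t11-CLA over control, with a median of -0.18. In that comparison 4 of the 9 were above 0, among them those of Sgpl1 at 0.31 and 0.13 and of Phyh at 0.495. Cyp4a14, a fatty acid omega-hydroxylase, had 15775.9 on t10,c12-CLA, 2161 on c9,t11-CLA and 13224.5 on control. Like Aldh3a2 it had its lowest signal on c9,t11-CLA and its highest on t10,c12-CLA. Cyp4a10, a related hydroxylase read by a marked probe set, had 15310.4 on t10,c12-CLA, 9793.9 on c9,t11-CLA and 20114.1 on control, 2.05-fold lower on c9,t11-CLA than on control, but -0.97 on the log2 scale after quantile normalization. For t10,c12-CLA over control none of the 9 reached 2-fold and the median was -0.12. Between the isomers 1 of 9, Cyp4a14, was 2-fold higher on t10,c12-CLA and none 2-fold lower, with a median of 0.16.

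Of the other enzymes of alcohol, aldehyde and acetate metabolism, 16 of 30 listed genes were on the array, and 14 of 19 probe sets were measured in each comparison. For t10,c12-CLA over control 1 of 14 was 2-fold higher and none 2-fold lower, with a median of 0.26. For c9,t11-CLA over control the counts were the same, with a median of 0.02. Cyp2e1, the cytochrome that oxidises ethanol beside Adh1, gave both, with 13410.7 on t10,c12-CLA, 39034.5 on c9,t11-CLA and 3021.6 on control. Aox1, an aldehyde oxidase, gave 4075.7 on t10,c12-CLA, 1602.1 on c9,t11-CLA and 2199.1 on control, 2.54-fold higher on t10,c12-CLA than on c9,t11-CLA. Between the isomers it was the 1 of 14 that was 2-fold higher and Cyp2e1 the 1 that was 2-fold lower, with a median of 0.12.

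Retinoid metabolism, which Adh1, Adh7 and Aldh1a1 share in, had 19 of 30 listed genes on the array and 12 of 21 probe sets measured in each comparison. For t10,c12-CLA over control 1 of 12 was 2-fold higher and none 2-fold lower, with a median of 0.17. For c9,t11-CLA over control 1 was 2-fold higher and 2 were 2-fold lower, with a median of 0.03. Between the isomers 3 were 2-fold higher on t10,c12-CLA and none 2-fold lower, with a median of 0.13.

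Retsat, which saturates retinol, gave 14733.1 on t10,c12-CLA, 4972 on c9,t11-CLA and 14073 on control, a log2 difference of -1.50 for c9,t11-CLA over control. Rdh16, a microsomal retinol dehydrogenase, gave 2613.4 on t10,c12-CLA, 691.6 on c9,t11-CLA and 1615 on control, a difference of -1.22 for c9,t11-CLA over control. Ttr, the carrier of retinol-binding protein in plasma and also 1 of the hepatocyte markers, stood at 1.21 between t10,c12-CLA and c9,t11-CLA. These 3 genes were lowest on the c9,t11-CLA array. Rxra, the partner receptor of the retinoic acid receptors, was higher on both CLA arrays, at 1.03 for t10,c12-CLA and 0.96 for c9,t11-CLA over control by 92234_at, and at 0.49 and 0.46 by its other probe set. Rdh11, a retinal reductase, stood at 1.03 for c9,t11-CLA over control by a marked probe set and at 0.58 by another. At equal medians the 1.03 of Rxra became 0.94 and that of Rdh11 0.84, both short of 2-fold. After quantile normalization they were 0.99 and 0.93. Ttr, at -0.94 for c9,t11-CLA over control as deposited, passed 2-fold at equal medians with -1.13.

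Stellate cells store retinoid in the liver, and 8 of 10 of their listed markers were on the array. Their summed signal was 40502 on t10,c12-CLA, 28840 on c9,t11-CLA and 37659 on control. Dcn alone gave 23002.6, 19600.2 and 25877.6 of these sums in that order. Of 8 probe sets measured for t10,c12-CLA over control 2 were 2-fold higher, against 2.18% of all measured probe sets. They were 94305_at of Col1a1 at 1.99 and 101130_at of Col1a2 at 1.25. The other probe sets of these genes stood at 0.80 and -0.10. Of 6 measured for c9,t11-CLA over control 1, that of Timp1 at -1.14, was 2-fold lower, against 2.81% of all. The part of these cells in the retinoid values was not tested.

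**Figure D4:**
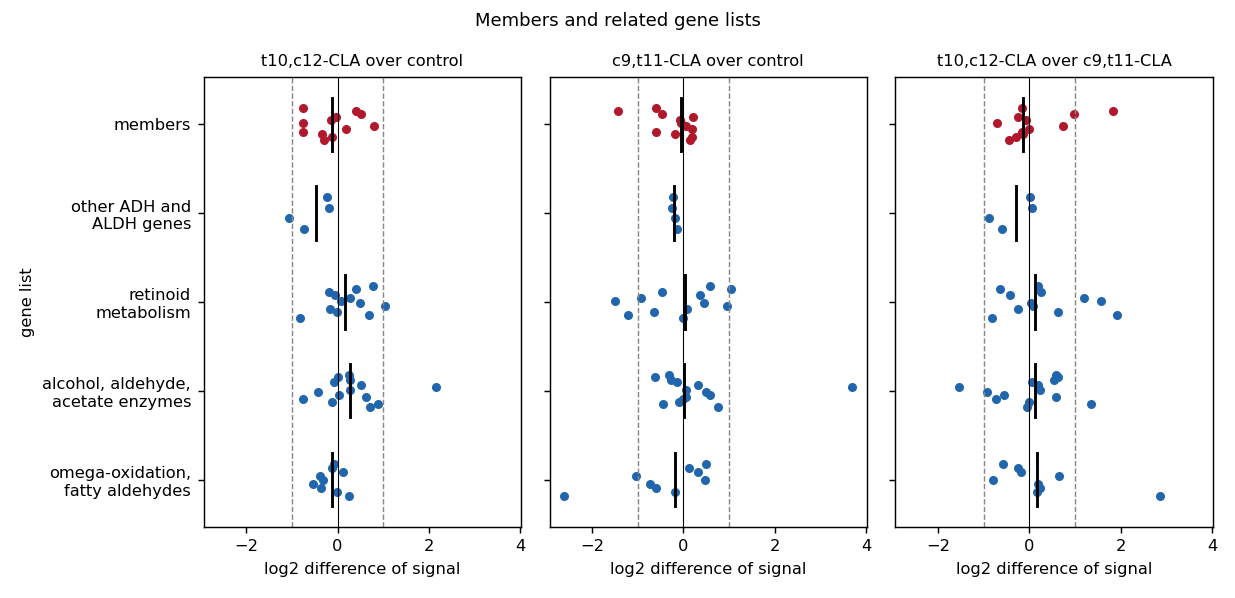
Log2 difference of signal (x axis) of each measured probe set (points) for the members and for the other ADH and ALDH genes, retinoid metabolism, the other alcohol, aldehyde and acetate enzymes, and omega-oxidation with fatty aldehyde genes (rows), in the 3 comparisons. Black bars are medians and dashed lines mark 2-fold. The member points lie between the lines except Aldh3a2 99559_at. In the c9,t11-CLA over control panel the points farthest out are Cyp2e1 at 3.69 and Cyp4a14 at -2.61.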

How the data were processed

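Liver RNA was measured on 3 Affymetrix mouse arrays, 1 per diet. The deposited values are signal intensities from MAS5 per the submitters' processing notes, and the version and scaling target are not given in the sources used here. Detection calls were not analysed here, so signals at or below 490.3, the pooled median, were treated as not measured. Signals were used without further scaling, and log2 differences, folds and counts were computed from the deposited intensities. Members were matched by the symbol in the platform's probe annotation. Other genes were matched after updating symbols by Entrez identifier to the RefSeq table of GRCm38.p6, which was also used for positions. Array controls were left out, which left 12422 probe sets. By rule the named genes are all members, genes of the 4 pathway lists at least 2-fold apart in any comparison, and the 3 genes nearest to the member with the widest range. The marker genes named, and Rdh5, Rdh7, Cbr3, Cat, Sgpl1 and Phyh, fall outside it and were chosen after their values were seen.

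With 1 array per diet there was no test, and the number of arrays limits the precision. Counting past 2-fold was run on simulated arrays with planted changes well above 2-fold in bright probe sets. Their noise was smaller than the SD found between probe sets of the same gene. The simulation thus checks the counting steps and cannot show how differences near 2-fold behave in these data. The members and gene lists were chosen with earlier results of these data known. Alternatives were a pseudocount of 50, leaving out marked probe sets, quantile normalization, equal medians, and a floor at the 25th or at the 75th percentile. Calculations used Python 3.11.15, numpy 2.4.6, pandas 2.3.3, scipy 1.17.1 and matplotlib 3.10.9.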

Additional observations from a re-analysis of the deposited data

How the results depend on the processing

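No paired analysis was possible because each diet had 1 array. Of 36 measured member differences, 26 kept their sign and 35 their side of 2-fold under each alternative run. The 10 that changed sign were at most 0.24 in size as deposited. Scaling to equal medians shifted the median of all probe sets by -0.18 for c9,t11-CLA over control, and 2 members instead of 1 were then 2-fold higher on t10,c12-CLA than on c9,t11-CLA, the added one being Aldh3a2 161401_f_at at 1.08. With the floor at the 25th percentile, 1 member was 2-fold higher for t10,c12-CLA over control and 1 for c9,t11-CLA over control, in both cases Aldh1a1 161956_at, at 1.71 and 1.31. The median member difference for c9,t11-CLA over control, -0.06, became 0.06 without marked probe sets. Aldh3a2 99559_at ranged from -1.63 to -1.36 for c9,t11-CLA over control and from 1.82 to 1.93 between the isomers.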

Other observations

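Further values, chosen after they were seen, concern retinol and carbonyl enzymes near the 2-fold size or the floor. Rdh5, a retinol dehydrogenase, gave 487.6 on t10,c12-CLA and 317.4 on c9,t11-CLA, both below the floor, against 1254.4 on control, and was at least 2.56-fold lower on either CLA array. Cbr3, a carbonyl reductase, gave 917.3 on t10,c12-CLA, 263.6 on c9,t11-CLA and 261.9 on control, so that its t10,c12-CLA signal was at least 1.87 times either other. Rdh7, another retinol dehydrogenase, gave 18013.6 on t10,c12-CLA, 31824.7 on c9,t11-CLA and 32061.6 on control. Cat, the peroxisomal catalase, which can oxidise ethanol, had a log2 difference of -0.75 for t10,c12-CLA over control by 160479_at and 0.04 by its other probe set. Each of these rests on 1 array per diet.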
